A study of Mus musculus with 18 samples.

Results

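Macrophage polarization was followed here through 10 genes that were chosen by name: Adgre1 and Csf1r, which mark macrophages in general, and Arg1, Nos2, Mrc1, Cd163, Chil3, Retnla, Trem2 and Apoe, whose RNA differs between macrophage states. Each of the 10 had 1 row among the 50600 genes of the count table, and all 10 were among the 16927 genes that passed the filter on low counts. Adgre1 is given beside the others throughout, both as a level and as a denominator.

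RNA was sequenced from 18 whole B16F10 tumors, a transplanted mouse melanoma line grown under the skin of the flank of C57BL/6 mice with no transgene or deletion in the host. Every tumor was injected intratumorally (IT) and removed 24 h after its last injection, and each of the 9 groups held 2 tumors. After 1 dose the groups were PBS, unloaded EVs, exoCDN2 at 0.1 µg, free CDN2 at 20 µg and free CDN2 at 100 µg. After 2 doses, given 3 days apart, they were PBS, exoCDN2 at 0.1 µg, CDN2 at 20 µg, and a group whose labels name the agonist without an amount. CDN2 is a cyclic dinucleotide that activates STING, the labels call it CL656, and for exoCDN2 it was loaded into EVs made by HEK293 cells. Unloaded EVs were given only once, so the vehicle of exoCDN2 has no group of its own after 2 doses. All tumors came from 1 cell line, and whole tissue mixes the RNA of tumor cells with that of host cells, so that fewer cells of a type and less RNA per cell cannot be told apart.

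Macrophages change the genes they express with the signals they receive. Interferon gamma and microbial products raise Nos2, the inducible nitric oxide synthase, whereas IL-4 and IL-13 raise Arg1, Mrc1, Chil3 and Retnla through STAT6, and these are the textbook markers of classical and alternative activation in the mouse. Arginase and nitric oxide synthase use the same substrate, arginine. Cd163 and Mrc1 also mark resident, scavenging macrophages, and Trem2 and Apoe mark lipid-handling macrophages of tumors and other damaged tissue. Several of these genes have other sources: Chil3 and Arg1 are also made by neutrophils and monocytes, and Apoe by many cell types.

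The total expected counts per tumor lay between 21608895 and 65983630. Across the tested genes the log2 normalized counts of the 2 tumors of a group had a Pearson's r between 0.975 and 0.991 in 8 groups and of 0.943 after 2 doses of CDN2 (20 µg), where both tumors were over 2-fold apart in 27.8% of the genes, and the first tumor of that pair had the lowest total. Genes are not independent replicates, so these values are a description. The tumors carried the markers of their label: none of 8 melanocyte genes was at 0 in any tumor, and their summed level ran from 7282 to 26927 CPM (counts scaled to equal library size). None of 18 general macrophage genes (the macrophage core list, with Cd68, Fcgr1, the C1q genes and others) was at 0 in any tumor, except Cx3cr1 in the first tumor given 2 doses of CDN2 (20 µg). With 2 tumors against 2, the exact two-sided permutation test of a single value cannot go below 0.333. Tests therefore used the spread shared by 16 tumors of 8 groups in 1 edgeR quasi-likelihood model, and a gene was called changed at a Benjamini-Hochberg adjusted p under 0.05 and a ratio over 2. Values of single tumors are normalized counts (the expected count divided by the DESeq2 size factor of its library), and fold changes are log2 values with their SE. Each SE was derived from the test, as the absolute log2 fold change divided by the square root of its F statistic.

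After 2 doses of exoCDN2, 5 of the 10 genes were changed against PBS: Nos2, Arg1, Chil3 and Csf1r rose and Retnla fell. In the same comparison 11.3% of all tested genes were changed, 8.87% higher and 2.48% lower. After 2 doses of CDN2 (20 µg), 7 of the 10 were changed, with Nos2, Arg1, Chil3, Csf1r and Trem2 higher and Mrc1 and Cd163 lower, where 30.6% of all genes were changed, 20% higher and 10.6% lower. After 1 dose of any agent none of the 10 was called. The 5 calls for exoCDN2 became 3 without its first tumor or the second PBS tumor, and the 7 for CDN2 became 4 without its first tumor or the first PBS tumor. The classical marker Nos2 and the alternative markers Arg1 and Chil3 thus rose in the same tumors. In the order of the 9 group means Retnla was lowest after 2 doses of exoCDN2, and Mrc1 and Cd163 were lowest after 2 doses of CDN2 (20 µg).

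**Figure D1:**
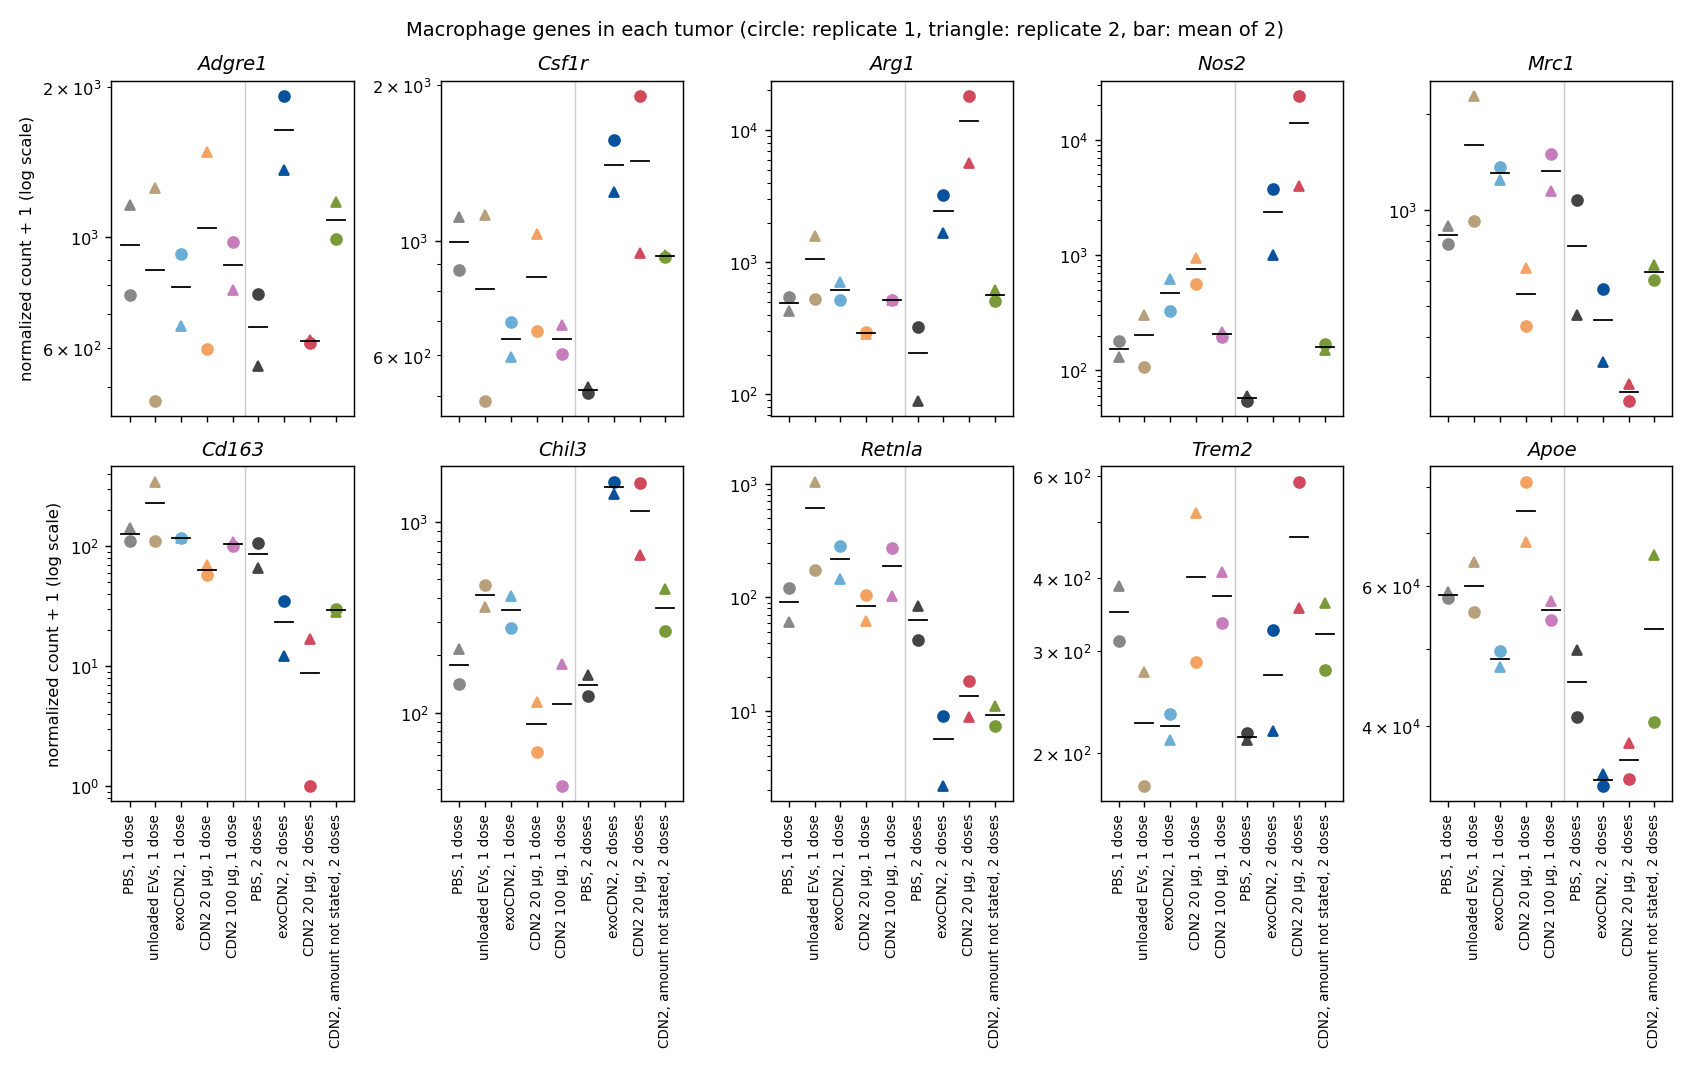
Normalized counts (log axis, count + 1) of the 10 genes in each of the 18 tumors, by group, with the 2 tumors of a group as points and their mean as a line. Nos2 and Arg1 reach 23796 and 18085 in the first tumor given 2 doses of CDN2 (20 µg), against 53.3 and 88.2 in the lowest PBS tumors after 2 doses, while Adgre1 stays between 468 and 1914.

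Adgre1 encodes F4/80, a surface receptor of the adhesion family that marks most mouse macrophages (chr17:57358691-57483527, plus strand, GRCm38). After 2 doses its normalized count was 768 and 549 with PBS, 1914 and 1360.3 with exoCDN2, and 612 and 621 with CDN2 (20 µg). Both exoCDN2 tumors lay above every other tumor of the 2-dose groups, and the CDN2 tumors lay between the PBS tumors. Against PBS the log2 fold change was 1.33 ± 0.47 for exoCDN2, which missed the threshold in edgeR's quasi-likelihood test (Benjamini-Hochberg adjusted p = 0.0698), and -0.13 ± 0.47 for CDN2 (adjusted p = 0.837). The exoCDN2 rise passed with DESeq2 (adjusted p = 0.0242) and in a fit of only those groups (0.0211). It also passed without the filter on low counts (2.8e-07). That fit called some of the 10 genes even for unloaded EVs, so its pass is not counted as support. The exoCDN2 tumors were 2.75-fold above the CDN2 tumors (adjusted p = 0.0317), in a comparison where 3 of the 10 genes and 19.4% of all genes were changed. The 3 became 0 without the first CDN2 tumor or the second exoCDN2 tumor. That difference passed only with all 4 tumors in: leaving out any 1 of them gave adjusted p values from 0.0582 to 0.132, with log2 fold changes from 1.21 to 1.71.

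Csf1r, the receptor for CSF1 and IL-34 on which macrophages depend, did not follow Adgre1 in every group. After 2 doses its level was 506 and 519.8 with PBS, 1560.1 and 1239 with exoCDN2, and 1899 and 944 with CDN2 (20 µg). All 4 treated tumors were above both PBS tumors, and the first CDN2 tumor was the highest of the 18. Csf1r rose by 1.47 ± 0.38 with exoCDN2 (edgeR quasi-likelihood, adjusted p = 0.019) and by 1.42 ± 0.38 with CDN2 (adjusted p = 0.00888) on the log2 scale, and the 2 treatments differed by 0.04 ± 0.37 (adjusted p = 0.934). The PBS tumors after 2 doses held the lowest group mean of Csf1r. With the PBS tumors of both dose numbers pooled, both rises lost their call (log2 fold change 0.91, adjusted p = 0.12, and 0.87, adjusted p = 0.07). For exoCDN2 the call was also lost without its first tumor (adjusted p = 0.141), without the first PBS tumor (0.0748) or without the second (0.106), and for CDN2 without its first tumor (0.0963) or the first PBS tumor (0.0541).

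Most general macrophage genes rose with both treatments against PBS after 2 doses. Of the 18 genes of the core list, 12 rose and 0 fell with 2 doses of exoCDN2 (median log2 fold change 2.09, against 0.0064 over all genes), and 15 rose and 1 fell with CDN2 (20 µg) (median 2.24, against 0). The shares over all genes were 8.87% higher and 2.48% lower with exoCDN2, and 20% higher and 10.6% lower with CDN2. Fcgr1, a high-affinity receptor for IgG that interferon induces, rose by 4.15 ± 0.42 and 4.78 ± 0.44. Spi1, the gene of the transcription factor PU.1, rose by 2.78 ± 0.47 and 3.83 ± 0.49. The gene that fell with CDN2, named after its values were seen, was Cx3cr1, the fractalkine receptor, which stood at 22.3 and 20.2 with PBS, 16.1 and 20.5 with exoCDN2, and 0 and 3.36 with CDN2. The summed level of the list was 443 and 418 CPM with PBS, 1369.7 and 916 CPM with exoCDN2, and 1877 and 1129CPM with CDN2. Both treated groups stood above PBS in this sum and overlapped each other, while Adgre1 was lower in the CDN2 than in the exoCDN2 tumors. The rises of the core list are set against a low PBS pair: after 1 dose of PBS its sum was 622 and 780 CPM. Both treated groups were above that pair too, but by less. Of the 18 genes 0 were called between 2 doses of PBS and 1, at a median of -0.93 against 0.0092 over all genes. Monocyte genes moved alongside: 6 of 8 rose with each treatment, with Ly6c2 up by 6.45 ± 0.76 and 7.04 ± 0.78, and their part in the levels of Csf1r and Adgre1 was not tested.

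Nos2, which makes nitric oxide from arginine (chr11:78920787-78960254, plus strand), had the widest range of the 10 genes, with a highest group mean 248-fold above the lowest. After 2 doses it stood at 53.3 and 58.8 with PBS, 3709 and 1008 with exoCDN2, and 23796 and 4001 with CDN2 (20 µg). The groups did not overlap, and the tumors of a treated group differed from each other by several fold. Nos2 rose 42.6-fold with exoCDN2 (log2 fold change 5.41 ± 0.91, edgeR quasi-likelihood, adjusted p = 0.00187) and 239-fold with CDN2 (7.90 ± 1.01, adjusted p = 0.000131). Its level was 5.59-fold lower with exoCDN2 than with CDN2 (adjusted p = 0.0263). Both rises against PBS kept their call with any 1 tumor left out, with log2 fold changes from 4.18 to 6.07 and from 6.14 to 8.61. The difference between exoCDN2 and CDN2 lost its call without the first CDN2 tumor (-0.74, adjusted p = 0.457) or without the second exoCDN2 tumor (-1.80, adjusted p = 0.164).

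Arg1, the cytosolic arginase that turns arginine into ornithine and urea (chr10:24915221-24927484, minus strand), rose in the same tumors as Nos2. Its level after 2 doses was 320.4 and 88.2 with PBS, 3218 and 1666 with exoCDN2, and 18085 and 5610.2 with CDN2 (20 µg). All exoCDN2 tumors lay above the PBS tumors and all CDN2 tumors above the exoCDN2 tumors. The increase against PBS was 12.1-fold for exoCDN2 (log2 fold change 3.60 ± 0.70, adjusted p = 0.00428) and 55.9-fold for CDN2 (5.81 ± 0.77, adjusted p = 0.000162), and the level was 4.63-fold lower with exoCDN2 than with CDN2 (adjusted p = 0.0216), all by edgeR's quasi-likelihood test. Leaving out any 1 tumor kept both rises against PBS. The difference between the treatments was lost without the first CDN2 tumor (-1.18, adjusted p = 0.212) or the second exoCDN2 tumor (-1.78, adjusted p = 0.15).

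Other genes of arginine metabolism changed with them. Of 12 such genes apart from Arg1 and Nos2, 4 rose and 0 fell with exoCDN2 (median log2 fold change 0.22) and 5 rose and 2 fell with CDN2 (median 0.98). Slc7a2, a cationic amino acid transporter, rose by 2.65 ± 0.76 and 5.66 ± 0.84. Arg2, the mitochondrial arginase, rose by 2.68 ± 0.79 and 6.38 ± 0.86. Ass1 rose by 1.36 ± 0.34 and 2.75 ± 0.35, and Gch1 by 1.58 ± 0.30 and 2.58 ± 0.31: the first recycles citrulline to arginine, and the second makes the cofactor that nitric oxide synthases need. The 2 genes that fell with CDN2, named after their values were seen, were Slc7a1, another arginine transporter (-1.44 ± 0.28), and Nos3, the endothelial nitric oxide synthase (-1.17 ± 0.30). Over all genes 8.87% rose and 2.48% fell with exoCDN2, and 20% rose and 10.6% fell with CDN2. The 2 falls of 12 were thus near the share over all genes. Between the treatments 5 of the 12 were lower with exoCDN2 than with CDN2 and 0 were higher, Arg2 by -3.70 ± 0.73. In that comparison 19.4% of all genes were changed in either direction.

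Chil3 (also called Ym1) encodes a secreted chitinase-like protein (chr3:106147554-106167564, minus strand). It has a near-identical neighbour, Chil4, between which an expected count may divide reads, so its values are uncertain to that extent. After 2 doses Chil3 stood at 122 and 157 with PBS, 1627 and 1407 with exoCDN2, and 1605 and 674 with CDN2 (20 µg). Every treated tumor was above every PBS tumor, and the treated groups overlapped. Chil3 rose 11.01-fold with exoCDN2 (log2 fold change 3.46 ± 0.59, adjusted p = 0.00202) and 7.88-fold with CDN2 (2.98 ± 0.58, adjusted p = 0.00157) in edgeR's quasi-likelihood test, and the treatments differed by 0.48 ± 0.53 (adjusted p = 0.492). Leaving out any 1 tumor kept both rises, at 3.29 to 3.66 and 2.26 to 3.41.

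**Figure D2:**
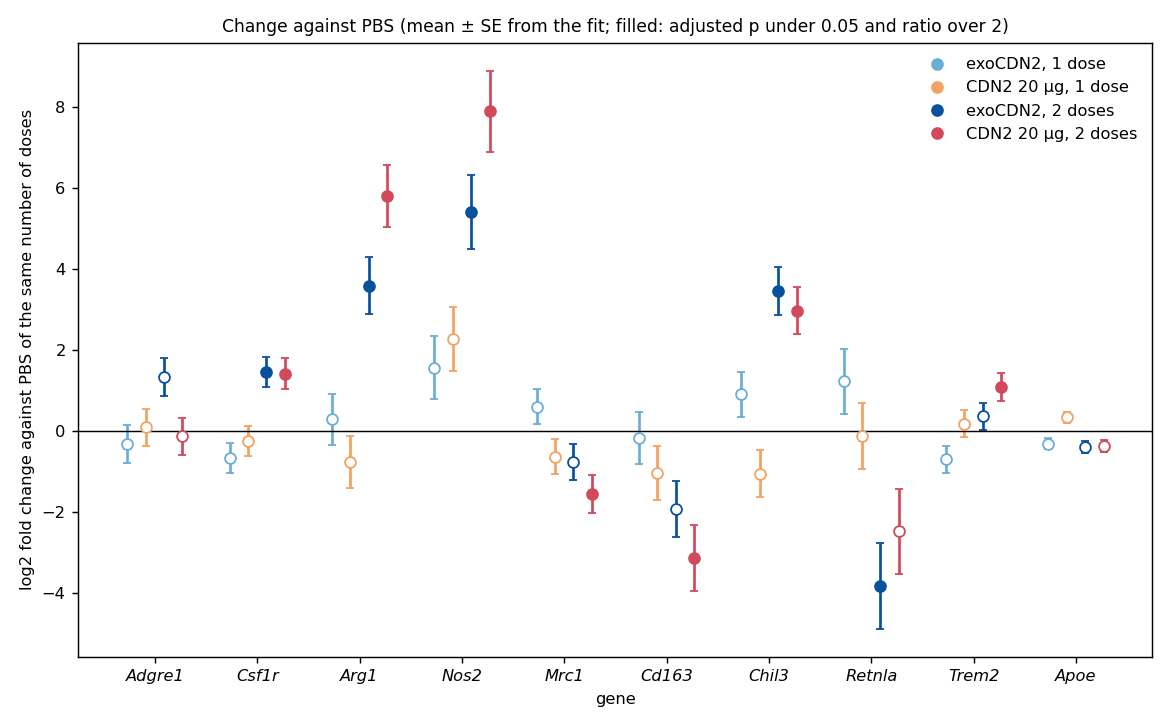
Log2 fold changes (vertical axis) with their SE for the 10 genes (horizontal axis) after 1 and 2 doses of exoCDN2 and CDN2 (20 µg), each against PBS of the same number of doses in the edgeR model of 16 tumors, with changed genes filled. Nos2 and Arg1 lie at 5.41 and 3.60 for 2 doses of exoCDN2 and at 7.90 and 5.81 for CDN2 (20 µg), while Retnla, Cd163 and Mrc1 lie below 0 in both.

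Retnla (also called Fizz1 or RELMα), a secreted protein strongly induced by IL-4 (chr16:48842551-48844461, plus strand), went the opposite way to Chil3 and Arg1. Its normalized count after 2 doses was 41.2 and 83.6 with PBS, 8.05 and 1.17 with exoCDN2, and 17.3 and 7.84 with CDN2 (20 µg). Both treated pairs were below both PBS tumors, at expected counts of 10 and 2 for exoCDN2 and 7 and 7 for CDN2. Retnla was 14.1-fold lower with exoCDN2 (log2 fold change -3.82 ± 1.06, edgeR quasi-likelihood, adjusted p = 0.0268), and with CDN2 its change of -2.47 ± 1.05 missed the threshold (adjusted p = 0.0672). The CDN2 change passed with DESeq2 (adjusted p = 0.0173), in a fit of only those groups (0.0484) and with pooled PBS tumors (0.0274). Its pass without the filter (2.9e-07) is not counted as support, because that fit also made calls for unloaded EVs. The call for exoCDN2 was lost without the first exoCDN2 tumor (adjusted p = 0.0717), without the second (0.157) or without the second PBS tumor (0.146), at log2 fold changes of -5.58, -2.91 and -3.22. At counts this low a fold change rests on a few reads per tumor.

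Mrc1 and Cd163 are scavenger receptors, the mannose receptor CD206 and the receptor for haemoglobin bound to haptoglobin (chr2:14229392-14332057 and chr6:124304656-124330527, plus strand). Mrc1 stood at 1075 and 470.2 with PBS after 2 doses, 567 and 334 with exoCDN2, and 252 and 285 with CDN2 (20 µg). The exoCDN2 tumors overlapped the PBS tumors (log2 fold change -0.76 ± 0.44, adjusted p = 0.27), and the CDN2 tumors lay below both, 2.92-fold lower (-1.55 ± 0.46, edgeR quasi-likelihood, adjusted p = 0.0151). Without the first PBS tumor, which held the higher Mrc1 level, the CDN2 change was -0.85 (adjusted p = 0.175), and without the first CDN2 tumor it was -1.45 (adjusted p = 0.0721).

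Cd163 stood at 106 and 64.3 with PBS, 33.8 and 11.1 with exoCDN2, and 0 and 15.7 with CDN2 (20 µg). All treated tumors were below both PBS tumors. Its fall with CDN2 was 8.70-fold (log2 fold change -3.12 ± 0.82, edgeR quasi-likelihood, adjusted p = 0.0081), and with exoCDN2 the change of -1.92 ± 0.70 missed the threshold (adjusted p = 0.078). The latter passed with DESeq2 (adjusted p = 0.0175) and with pooled PBS tumors (0.0347). Its pass without the filter (5.8e-05) is not counted as support, because that fit also made calls for unloaded EVs. Expected counts were 0 and 14 in the CDN2 tumors and 42 and 19 in the exoCDN2 tumors. A count of 0 in a library allows up to 3 reads, and without the second CDN2 tumor the fitted change of -9.50 rests on that count of 0 alone and is no bound.

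Of the 20 other genes induced by IL-4 or marking resident macrophages, 5 rose and 3 fell with 2 doses of exoCDN2 (median log2 fold change 0.02) and 7 rose and 2 fell with CDN2 (20 µg) (median 0.11). Those that rose with both included Msr1, a scavenger receptor (3.33 ± 0.42 and 2.84 ± 0.41), Tgm2, a transglutaminase (2.74 ± 0.43 and 3.997 ± 0.45), and Il1rn, the IL-1 receptor antagonist (3.62 ± 0.66 and 6.15 ± 0.74). Mgl2, a galactose-binding lectin of dermal macrophages and dendritic cells, fell by 4.55 ± 0.79 and by 2.88 ± 0.76 on the log2 scale. The other 2 that fell with exoCDN2, named after their values were seen, were Cd209f, a lectin (-3.004 ± 0.72), and Ccl22, a chemokine that attracts regulatory T cells (-1.16 ± 0.34), of which Cd209f also fell with CDN2 (-3.19 ± 0.78). Over all genes 8.87% rose and 2.48% fell with exoCDN2, and 20% rose and 10.6% fell with CDN2, so that the 2 falls of 20 with CDN2 were near the share over all genes.

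The promoters of 4 genes are shown because Chil3 moved apart here from Retnla, Mrc1 and Cd163, with which it is classed as an alternative marker. After repeated doses Chil3 rose against PBS with both treatments. Retnla, Mrc1 and Cd163 had negative log2 fold changes in the same comparisons, of which not all were called. RefSeq (GRCm38.p6) gave a promoter by symbol for 6 of the 10 genes. The 250 bases before the RefSeq start of each, which differs from the GENCODE start given above for Retnla, Mrc1 and Cd163, are printed 5′ to 3′ on the strand of the gene, and capitals mark matches to 4 motifs searched on both strands: TTCNNNNGAA, the spacing that STAT6 prefers, TTCNNNGAA, the gamma-activated site, GAGGAAG, a core of PU.1, and TTGCNNAA, a core of C/EBP.
Retnla, chr16:48842359-48842608, plus strand: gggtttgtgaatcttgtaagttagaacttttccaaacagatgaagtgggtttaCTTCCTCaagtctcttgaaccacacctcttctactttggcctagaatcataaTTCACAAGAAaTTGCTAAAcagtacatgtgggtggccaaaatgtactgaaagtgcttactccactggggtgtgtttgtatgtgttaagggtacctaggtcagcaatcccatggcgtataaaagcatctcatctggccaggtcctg
Chil3, chr3:106167565-106167814, minus strand: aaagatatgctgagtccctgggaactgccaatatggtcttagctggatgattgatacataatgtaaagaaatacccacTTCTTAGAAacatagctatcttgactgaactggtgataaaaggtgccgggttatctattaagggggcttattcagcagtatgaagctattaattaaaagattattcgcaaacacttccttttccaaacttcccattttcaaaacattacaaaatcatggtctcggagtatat
Mrc1, chr2:14229164-14229413, plus strand: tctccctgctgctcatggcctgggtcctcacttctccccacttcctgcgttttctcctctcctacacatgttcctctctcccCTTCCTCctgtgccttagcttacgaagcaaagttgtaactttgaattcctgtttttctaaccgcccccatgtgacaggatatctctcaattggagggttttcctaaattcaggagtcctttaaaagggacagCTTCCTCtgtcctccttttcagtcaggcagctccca
Cd163, chr6:124304401-124304650, plus strand: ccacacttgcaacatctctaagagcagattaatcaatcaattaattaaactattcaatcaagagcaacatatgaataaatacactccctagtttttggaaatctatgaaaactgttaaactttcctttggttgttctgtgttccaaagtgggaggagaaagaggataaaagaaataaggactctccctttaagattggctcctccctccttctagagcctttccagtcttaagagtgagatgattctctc
Counted from the first base printed, Retnla held TTCNNNNGAA at bases 106 to 115, TTGCNNAA at 117 to 124, and GAGGAAG on the opposite strand (printed as its complement) at 54 to 60. Chil3 held TTCNNNGAA at 79 to 87, Mrc1 held GAGGAAG on the opposite strand at 83 to 89 and at 215 to 221, and Cd163 held none of the 4. No matches overlapped. Of 32851 promoters of this length, 5.85% held TTCNNNNGAA, 7.02% TTCNNNGAA, 10.6% GAGGAAG and 9.56% TTGCNNAA, so each match is a description of these letters and not a binding site.

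Trem2, a lipid receptor of macrophages (chr17:48346401-48354147, plus strand), and Apoe, the lipid carrier apolipoprotein E (chr7:19696109-19699188, minus strand), had the narrowest ranges over the 9 group means. Trem2 stood at 216 and 209 with PBS after 2 doses, 325 and 217 with exoCDN2, and 585 and 354 with CDN2 (20 µg). It rose 2.14-fold with CDN2 (log2 fold change 1.10 ± 0.34, edgeR quasi-likelihood, adjusted p = 0.0182), and with exoCDN2 the change was 0.37 ± 0.33 (adjusted p = 0.496). The CDN2 call was lost without its first tumor (adjusted p = 0.14), without either PBS tumor (0.0744 and 0.0776), with the PBS tumors pooled (0.69, adjusted p = 0.0886) and in a fit of the 2 groups alone (adjusted p = 0.115). Apoe stood at 40987.5 and 49858 with PBS, 33544 and 34807 with exoCDN2, and 34285 and 38035 with CDN2. All treated tumors lay below both PBS tumors, by -0.39 ± 0.14 and -0.36 ± 0.14, and neither change passed (adjusted p = 0.0816 and 0.054).

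Among 18 partners of Trem2 and Apoe in lipid handling, 9 rose and 0 fell with 2 doses of exoCDN2 (median log2 fold change 1.10) and 9 rose and 1 fell with CDN2 (20 µg) (median 1.63). Nr1h3, the gene of the sterol-sensing receptor LXRα, rose by 2.13 ± 0.32 and 2.98 ± 0.33. Apoc2, the cofactor of lipoprotein lipase, which lies in the same gene cluster as Apoe, rose by 3.99 ± 0.70 and 5.19 ± 0.72. Tyrobp, the adaptor through which TREM2 signals and which also stands in the core list, rose by 2.21 ± 0.46 and 3.17 ± 0.47. Of 9 genes that handle haem and iron, the substrates taken up through CD163, 3 rose and 0 fell with exoCDN2 and 6 rose and 1 fell with CDN2. Hmox1, haem oxygenase, rose by 1.68 ± 0.38 and 3.13 ± 0.40, and Tfrc, the transferrin receptor, fell by 2.36 ± 0.22 with CDN2 on the log2 scale. Among all genes 8.87% rose and 2.48% fell with exoCDN2, and 20% rose and 10.6% fell with CDN2. The 1 fall with CDN2 in each of these lists was near or below that share.

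Genes that interferon gamma and LPS induce in macrophages moved in 1 direction. Of 19 tested apart from Nos2, 15 rose and 0 fell with 2 doses of exoCDN2 (median log2 fold change 3.59), and 17 rose and 0 fell with CDN2 (20 µg) (median 6.36). Cxcl9, a chemokine for T cells, rose by 6.57 ± 0.47 and 6.86 ± 0.48, and Irf1, a transcription factor that interferons induce, by 3.83 ± 0.32 and 4.29 ± 0.33. These folds are set against a low PBS pair: Cxcl9 stood at 147 and 88.2 with PBS after 2 doses and at 1755 and 2210.1 after 1, and Irf1 at 826 and 764 and at 5288 and 6051. Between the treatments 8 were lower with exoCDN2 and 0 were higher, among them Cxcl10 (-1.61 ± 0.38). Of 16 polarizing cytokines, receptors and STATs, 10 rose with exoCDN2 and 12 with CDN2 and 0 fell with either. Among all genes 8.87% rose with exoCDN2 and 20% with CDN2, and 19.4% differed between the treatments in either direction. Csf1, the ligand of CSF1R, rose by 2.51 ± 0.39 and 3.38 ± 0.40.

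The genes were also expressed as a percentage of the Adgre1 count of the same tumor. Nos2 was 6.94% and 10.7% of Adgre1 with PBS after 2 doses, 194% and 74.1% with exoCDN2, and 3886% and 644% with CDN2 (20 µg). Arg1 was 41.7% and 16.1% with PBS, 168% and 122% with exoCDN2, and 2953% and 903% with CDN2. For both genes the exoCDN2 tumors stood between the PBS and the CDN2 tumors.

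Mrc1 fell from 140.0% and 85.6% of Adgre1 with PBS to 29.6% and 24.5% with exoCDN2, and was at 41.1% and 45.9% with CDN2. Cd163 was 13.8% and 11.7% with PBS, 1.77% and 0.819% with exoCDN2, and 0% and 2.52% with CDN2. Retnla was 5.37% and 15.2% with PBS, 0.420% and 0.0862% with exoCDN2, and 2.82% and 1.26% with CDN2. These 3 were below PBS in both treated groups, and Mrc1 and Retnla stood lower with exoCDN2 than with CDN2, where Adgre1 itself was higher.

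Chil3 was 15.9% and 28.6% of Adgre1 with PBS, 85.0% and 103% with exoCDN2, and 262% and 108% with CDN2. Trem2 was 28.1% and 38.1% with PBS, 17.0% and 15.96% with exoCDN2, and 95.6% and 56.9% with CDN2. Trem2 relative to Adgre1 thus lay below PBS with exoCDN2 and above it with CDN2. Neither change of the ratio was called in the fit given below (log2 -1.01 ± 0.65 and 1.20 ± 0.66). With exoCDN2 Trem2 itself was not lower than with PBS (0.37 ± 0.33), and Adgre1 was higher. Csf1r was 65.9% and 94.6% with PBS, 81.5% and 91.1% with exoCDN2, and 310.1% and 152% with CDN2.

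With the Adgre1 count as library size, 7 of the other 9 genes were changed with 2 doses of exoCDN2, where 26.3% of all genes were called, 3.49% higher and 22.8% lower. They were Arg1 (log2 change of the ratio 2.33 ± 0.68), Nos2 (3.93 ± 0.73), Chil3 (2.08 ± 0.67), Mrc1 (-2.06 ± 0.66), Cd163 (-3.29 ± 0.75), Retnla (-5.26 ± 0.84) and Apoe (-1.74 ± 0.60). With CDN2 (20 µg) 5 were changed, against 15.3% of all genes: Arg1 (6.06 ± 0.80), Nos2 (8.01 ± 0.87), Chil3 (3.06 ± 0.69), Cd163 (-3.08 ± 0.81) and Retnla (-2.41 ± 0.79). Between exoCDN2 and CDN2 5 were changed, against 39.9% of all genes, with Arg1 (-3.73 ± 0.71), Nos2 (-4.08 ± 0.73), Retnla (-2.85 ± 0.88), Trem2 (-2.21 ± 0.67) and Apoe (-1.44 ± 0.60) lower with exoCDN2. After 1 dose 0 were changed against PBS with exoCDN2, CDN2 (20 µg) or CDN2 (100 µg), where 2.78%, 1.68% and 2.06% of all genes were, and 0 between exoCDN2 and CDN2 (20 µg), where 0.106% were. The 7 calls for exoCDN2 became 3 without either of its tumors or the second PBS tumor, and the 5 between exoCDN2 and CDN2 became 2 or 3 without the first CDN2 tumor or either exoCDN2 tumor. The p-values of this fit are too small, because the error of Adgre1 is shared by every gene and the fit took the spread as known. With the 8 residual degrees of freedom of the design, chosen after seeing the data, 0 were called for exoCDN2, 3 for CDN2 (Arg1, Nos2 and Chil3) and 2 between them (Arg1 and Nos2).

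**Figure D3:**
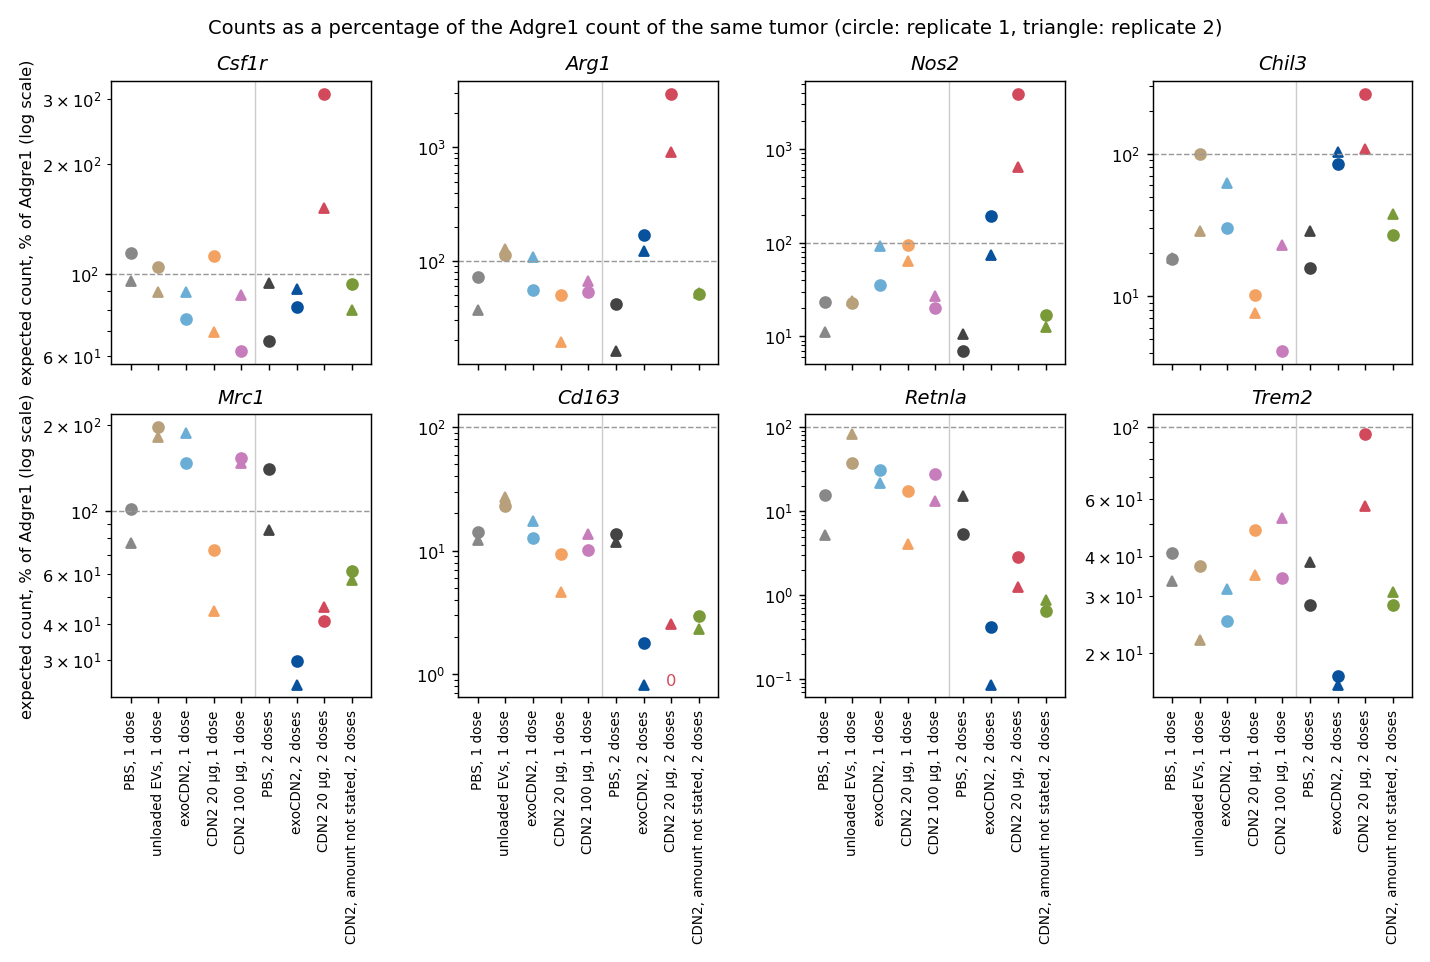
Count of each gene as a percentage of the Adgre1 count of the same tumor (log axis) in the 18 tumors by group, for 8 genes without Apoe, with circle and triangle for the 2 tumors and a printed 0 for Cd163 in 1 tumor. Nos2 runs from 6.94% with PBS after 2 doses to 3886% with 2 doses of CDN2 (20 µg), and Retnla falls to 0.0862% with 2 doses of exoCDN2.

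Markers of other cells moved in the same tumors. Beside the counts of these lists stand the shares over all genes: 8.87% rose and 2.48% fell with exoCDN2, and 20% rose and 10.6% fell with CDN2. The summed level of 10 neutrophil genes was 2.41 and 1.63 CPM with PBS after 2 doses, 73.2 and 23.9 CPM with exoCDN2, and 917 and 219 CPM with CDN2 (20 µg). Of these genes 6 rose with exoCDN2 and 10 rose with CDN2, and Ly6g, the defining marker, stood at 0.859 and 0 with PBS, 2.41 and 0.587 with exoCDN2, and 274 and 58.2 with CDN2. The first CDN2 tumor had the highest level of neutrophil genes, of Nos2 and of Arg1 among the 18 tumors.

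The sum of 8 monocyte genes was 120 and 125 CPM with PBS, 704 and 432 CPM with exoCDN2, and 1832 and 597 CPM with CDN2. Of 8 T cell genes 7 rose with exoCDN2 and 6 with CDN2. Against CDN2, 4 of them were higher with exoCDN2, where 19.4% of all genes were changed in either direction. The T cell genes summed to 2.14 and 1.10 CPM with PBS, 39.6 and 30.4 CPM with exoCDN2, and 7.99 and 9.60 CPM with CDN2. With PBS after 1 dose it was 8.76 and 11.3 CPM, so among the PBS pairs the CDN2 tumors were above only the 2-dose pair. The sum of 8 melanocyte genes was 25003 and 25647 CPM with PBS, 16128 and 17415 CPM with exoCDN2, and 7282 and 13494 CPM with CDN2, where 5 of the 8 fell. Of 7 skeletal muscle genes 4 rose with CDN2, at a sum of 3492 and 2109.8 CPM against at most 558 CPM in the tumors of the other groups.

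Of 5 eosinophil genes only 2 passed the filter, their sum was at most 1.96 CPM in any tumor, and Epx, eosinophil peroxidase, was at 0 in 16 of the 18 tumors. Fibroblast genes rose in 2 of 8 with exoCDN2 and 4 of 8 with CDN2, 0 of 7 endothelial genes changed with exoCDN2 and 1 fell with CDN2, and of 7 dendritic cell genes tested 0 changed with exoCDN2 and 1 rose and 1 fell with CDN2. The single endothelial and dendritic cell calls with CDN2 were near or below the shares over all genes (20% higher, 10.6% lower). Keratinocyte genes, of which 0 of 8 were called in either, summed to 83.7 and 0.0710 CPM with exoCDN2 and 119.5 and 65.6 CPM with PBS after 1 dose, and so differed between tumors of 1 group. The part of these cells in the levels of the 10 genes was not tested.

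**Figure D4:**
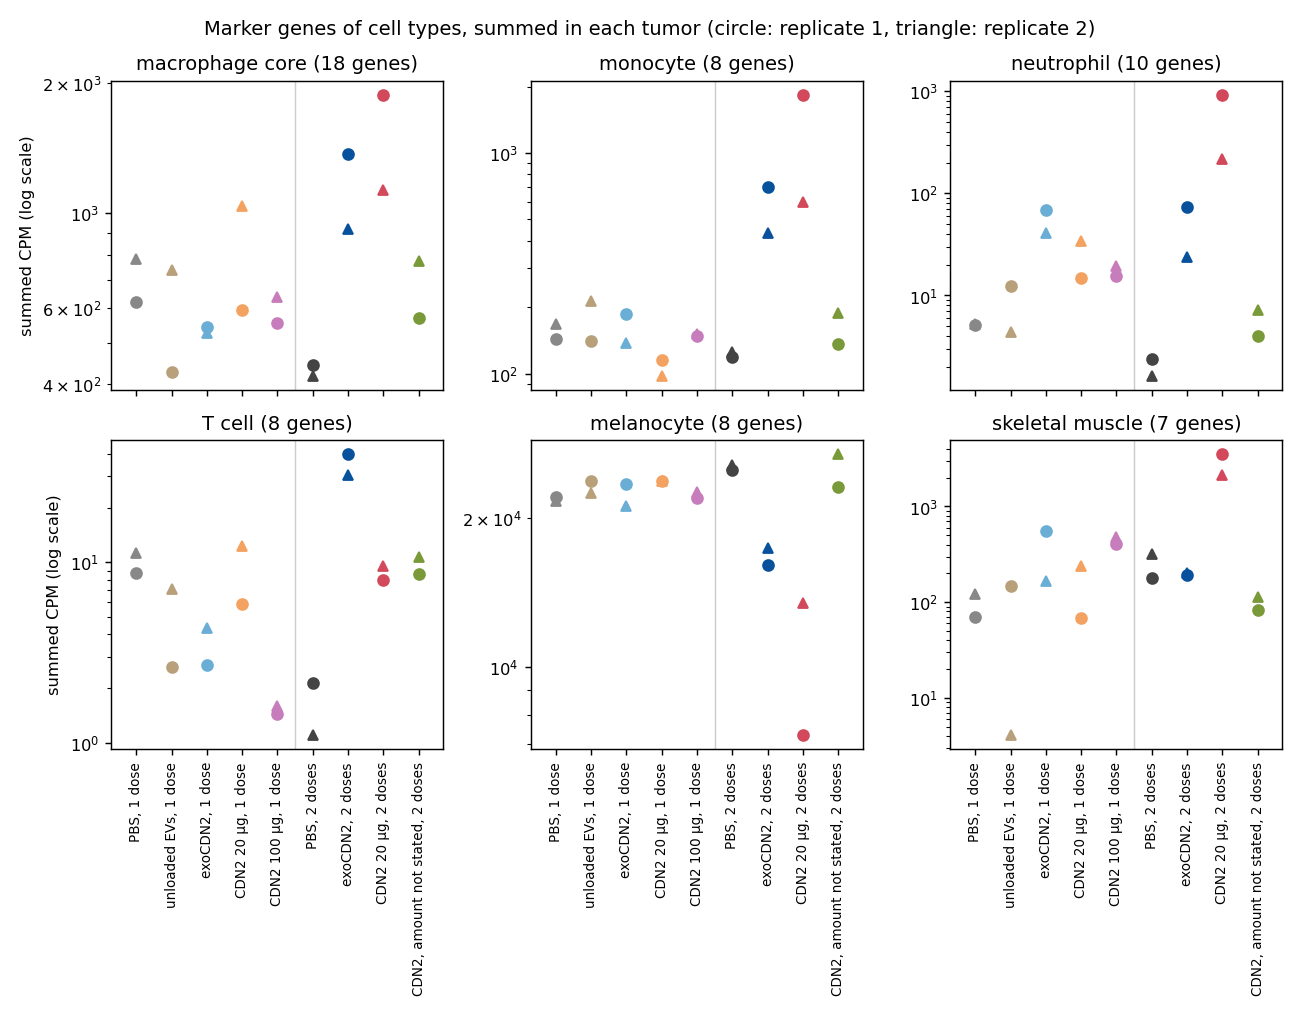
Summed level of 6 marker lists in CPM (log axis) in each tumor, by group, with circle and triangle for the 2 tumors. Neutrophil genes rise from 1.63 CPM in a PBS tumor after 2 doses to 917 CPM in the first tumor given 2 doses of CDN2 (20 µg), while melanocyte genes fall to 7282 CPM there.

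After 1 dose the 10 genes showed no call against PBS in edgeR's quasi-likelihood test, where exoCDN2 changed 2.62% of all genes, CDN2 (20 µg) 3.14% and CDN2 (100 µg) 2.44%. At an unadjusted p under 0.05 there were 0, 2 and 0 of the 10. Nos2 stood at 178 and 128 with PBS, 326 and 613 with exoCDN2, 564 and 944 with CDN2 (20 µg), and 195 and 213 with CDN2 (100 µg). All 6 tumors given CDN2, free or loaded, were above both PBS tumors, and the higher amount of CDN2 stood below the lower, by -1.89 ± 0.78 (adjusted p = 0.253). The changes against PBS were 1.58 ± 0.78 (adjusted p = 0.36), 2.29 ± 0.79 (adjusted p = 0.161) and 0.40 ± 0.79 (adjusted p = 0.9). Unloaded EV tumors stood at 106 and 298 in Nos2, the second of them above both tumors given CDN2 (100 µg). How many of all genes separate in this way was not taken.

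In the same tumors other response genes had changed. Of the 19 interferon gamma and LPS response genes 12 rose with exoCDN2, 11 with CDN2 (20 µg) and 9 with CDN2 (100 µg), and 0 fell. Cxcl10 rose by 5.11 ± 0.44, 4.72 ± 0.43 and 4.98 ± 0.43. Of the macrophage core list 0 rose, and Cx3cr1 was the 1 gene that fell with exoCDN2 (-4.16 ± 0.59) and with CDN2 (100 µg) (-2.22 ± 0.51). Cx3cr1 stood at 72.3 and 91.8 with PBS, 3.38 and 5.94 with exoCDN2, and 11.3 and 24.0 with CDN2 (100 µg). Unloaded EVs, at 15.5 and 24.1, were also below PBS and level with CDN2 (100 µg), although 0 genes of the list were called for EVs. Neutrophil genes rose in 3 of 10 with exoCDN2, 2 with CDN2 (20 µg) and 0 with CDN2 (100 µg), at sums of 41.0 to 68.4, 14.8 to 34.4 and 15.6 to 19.4 CPM.

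Arg1 did not follow Nos2 after 1 dose. It stood at 549 and 429 with PBS, 518 and 714 with exoCDN2, 297 and 285 with CDN2 (20 µg), and 519.7 and 518.8 with CDN2 (100 µg). The lowest pair was that given CDN2 (20 µg), at -0.76 ± 0.65 (adjusted p = 0.645). Chil3 stood at 140.0 and 214 with PBS, 278 and 409.9 with exoCDN2, 61.1 and 113 with CDN2 (20 µg), and 40.2 and 179.5 with CDN2 (100 µg). Mrc1 stood at 779.8 and 889 with PBS, 1365 and 1242 with exoCDN2, 434 and 658 with CDN2 (20 µg), and 1501 and 1149 with CDN2 (100 µg). For Arg1, Chil3, Mrc1, Cd163 and Retnla the exoCDN2 tumors lay above those given CDN2 (20 µg), and for Trem2 and Apoe below them. The unloaded EV tumors lay on the same side of the CDN2 (20 µg) tumors for each of these genes. Chil3 stood at 466 and 357 with EVs and Mrc1 at 921 and 2272, so the separation was not particular to the loaded agonist. With 2 tumors against 2 such a separation has an exact two-sided permutation p of 0.333, and its share over all genes was not taken. In edgeR's quasi-likelihood test of exoCDN2 against CDN2 (20 µg) Arg1 had an adjusted p of 0.397.

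None of the 10 was called between exoCDN2 and CDN2 (20 µg) after 1 dose, where 0.608% of all genes were, although 4 of the 10 had an unadjusted p under 0.05. They were Apoe (log2 fold change -0.65 ± 0.14, adjusted p = 0.0574), Chil3 (1.96 ± 0.58, adjusted p = 0.0999), Mrc1 (1.23 ± 0.44, adjusted p = 0.158) and Trem2 (-0.88 ± 0.34, adjusted p = 0.18). Between 100 µg and 20 µg of CDN2 none was called either, where 0.455% of all genes were, and 3 of the 10 had an unadjusted p under 0.05: Nos2, Mrc1 (1.28 ± 0.44, adjusted p = 0.183) and Apoe (-0.42 ± 0.14, adjusted p = 0.172).

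Unloaded EVs changed 0 of the 10 and 0% of all genes, with 540 genes and 1 of the 10 at an unadjusted p under 0.05. That 1 was Retnla, at 174 and 1045 with EVs against 119 and 59.6 with PBS (log2 fold change 2.77 ± 0.83, adjusted p = 0.982). The second EV tumor held the highest level of the 18 tumors in Retnla, Mrc1 (2272) and Cd163 (343), and its Arg1 (1588) was the highest of the 1-dose tumors. The first EV tumor stood at 921, 109 and 525 in Mrc1, Cd163 and Arg1, within or near the range of PBS. In Chil3 it was the higher of the pair: EVs stood at 466 and 357 against 140 and 214 with PBS (1.20 ± 0.55). Both EV tumors were thus above both PBS tumors in Chil3, as in Retnla and Mrc1 (0.93 ± 0.44), and below them in Trem2 (-0.65 ± 0.33). Against EVs, exoCDN2 changed 0 of the 10 after 1 dose, where 2.95% of all genes were changed, and Nos2 differed by 1.19 ± 0.77 (adjusted p = 0.551).

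The second dose was also compared with the first. With exoCDN2, 4 of the 10 differed between 2 doses and 1, where 7.44% of all genes did: Chil3 was higher (log2 fold change 2.19 ± 0.56, adjusted p = 0.0258), and Mrc1 (-1.49 ± 0.45, adjusted p = 0.0497), Cd163 (-2.33 ± 0.70, adjusted p = 0.0493) and Retnla (-5.58 ± 1.06, adjusted p = 0.00719) were lower. Mrc1, Cd163 and Chil3 lost their call without any 1 of the 4 tumors, and Retnla lost it without the first tumor of either group (adjusted p = 0.0609 and 0.0501). With CDN2 (20 µg), 6 of the 10 differed, where 20.8% of all genes did: Arg1 (5.30 ± 0.75, adjusted p = 0.000891), Nos2 (4.16 ± 0.83, adjusted p = 0.00342) and Chil3 (3.67 ± 0.61, adjusted p = 0.0015) were higher, and Cd163 (-2.66 ± 0.83, adjusted p = 0.0264), Retnla (-2.87 ± 1.04, adjusted p = 0.0491) and Apoe (-1.07 ± 0.14, adjusted p = 0.000743) were lower. Without any 1 of these 4 tumors Arg1, Nos2 and Chil3 kept their call and Retnla lost it (adjusted p from 0.0658 to 0.189). Cd163 lost it in all cases but the one that left out the second 2-dose tumor (adjusted p from 0.0691 to 0.0965). The ratio of Apoe came under 2 without the first tumor of either group (-0.97 and -0.99).

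The PBS tumors themselves differed between dose numbers. After 2 doses of PBS 0 of the 10 were called against 1 dose, where 1.10% of all genes were. All 10 log2 fold changes were below 0, against a median of 0.0092 over all genes. The 10 values come from the same tumors, and the share of all genes below 0 was not taken. Csf1r (-0.96 ± 0.37, adjusted p = 0.365) and Apoe (-0.37 ± 0.14, adjusted p = 0.357) had an unadjusted p under 0.05. Of the 19 interferon gamma and LPS response genes 3 were lower after 2 doses of PBS than after 1 and 0 higher: Cxcl9 (-4.08 ± 0.42, adjusted p = 0.000478), Irf1 (-2.84 ± 0.31, adjusted p = 0.000546) and Cxcl10 (-2.69 ± 0.40, adjusted p = 0.00397). Since every tumor was removed 24 h after its last injection, the number of doses and the time since the first injection cannot be told apart.

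The effect against PBS after 2 doses was then set against that after 1 dose, in the same edgeR model. For exoCDN2, 3 of the 10 differed, where 6.82% of all genes did: Csf1r (2.12 ± 0.53), Arg1 (3.30 ± 0.92) and Retnla (-5.06 ± 1.33). For CDN2 (20 µg), 4 differed, where 16.8% of all genes did: Csf1r (1.66 ± 0.53), Arg1 (6.56 ± 0.98), Nos2 (5.61 ± 1.16) and Chil3 (4.02 ± 0.82). Retnla stood above PBS after 1 dose of exoCDN2, at 285 and 144.5 against 119 and 59.6, a change of 1.24 ± 0.80 that did not pass (adjusted p = 0.515), and below it after 2. For exoCDN2 these calls depended on 6 of the 8 tumors: 0 of the 10 were called without either tumor of the 1-dose exoCDN2 or PBS pairs, without the first tumor given 2 doses of exoCDN2 or without the second given 2 doses of PBS. Without the second tumor given 2 doses of exoCDN2, Csf1r and Arg1 kept their call, and without the first given 2 doses of PBS, Arg1 and Retnla did. For CDN2 those of Arg1, Nos2 and Chil3 kept their call without any 1 tumor, and that of Csf1r lost it in 6 of 8 cases, at 1.09 to 1.79 (adjusted p from 0.0748 to 0.167).

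The 2 tumors given 2 doses of CL656 with no stated amount were tested in a fit of all 18 tumors and 17110 genes. Against PBS after 2 doses 0 of the 10 were called, where 0.959% of all genes were, and 5 of the 10 had an unadjusted p under 0.05. Nos2 stood at 168 and 149 and Arg1 at 504 and 615, above both PBS tumors and below every tumor given 2 doses of exoCDN2 or CDN2 (20 µg). Cd163 stood at 29.0 and 27.1 and Retnla at 6.35 and 10.2 (log2 fold change -2.93 ± 0.95, adjusted p = 0.25), below both PBS tumors and near the levels with exoCDN2. Adgre1 stood at 988 and 1173, Csf1r at 929 and 937, Mrc1 at 606 and 673, and Chil3 at 267 and 443. The neutrophil genes of this pair summed to 4.04 and 7.18 CPM, and Ly6g was at 0 in both tumors.

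Over all groups, the order of the group means differed from gene to gene. Adgre1 was highest after 2 doses of exoCDN2 (1637 ± 392, SD, n = 2) and lowest after 2 doses of CDN2 (20 µg) (617 ± 6.28), and from 1081 downward each of the other groups overlapped its neighbour in the order. Csf1r was highest in both 2-dose treated groups (1421 ± 675 and 1399.8 ± 227) and lowest in PBS after 2 doses (513 ± 9.84). Nos2 ran from 56.0 ± 3.91 in PBS after 2 doses through 754 ± 269 after 1 dose of CDN2 (20 µg) to 13898 ± 13997 after 2, an SD as large as its mean. Arg1 ran from 204 ± 164 in PBS after 2 doses to 11847 ± 8821 after 2 doses of CDN2, with unloaded EVs (1057 ± 752) the highest of the 1-dose groups.

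Mrc1 and Cd163 shared their highest and their 2 lowest groups, from unloaded EVs at the top (1597 ± 956 and 226 ± 165) to 2 doses of exoCDN2 (450.5 ± 165 and 22.5 ± 16.01) and of CDN2 (269 ± 23.7 and 7.84 ± 11.1) at the bottom. Retnla was highest with unloaded EVs (609 ± 615) and lowest after 2 doses of exoCDN2 (4.61 ± 4.86). Chil3 was highest after 2 doses of exoCDN2 (1517 ± 156) and lowest after 1 dose of CDN2 (20 µg) (86.9 ± 36.4). Trem2 spanned 2.21-fold and Apoe 2.18-fold from the lowest to the highest group mean, the narrowest ranges of the 10.

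Per kilobase of exon, which allows a comparison between genes, the median level over the 18 tumors was highest for Apoe (24379 normalized counts per kilobase), followed by Adgre1 (263), Arg1 (234), Chil3 (167), Csf1r (156), Retnla (121), Mrc1 (114), Trem2 (60.4), Nos2 (57.9) and Cd163 (15.3). In its highest tumor Arg1 reached 8117 and Nos2 5393 normalized counts per kilobase, and no tumor of these 18 had Adgre1 above 591.

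Across the 18 tumors, which share groups and libraries, Arg1 and Nos2 had a Pearson's r of 0.857 in log2(normalized count + 1), Arg1 and Chil3 0.753, Mrc1 and Cd163 0.837, Mrc1 and Retnla 0.766, Nos2 and Cd163 -0.732, Adgre1 and Csf1r 0.563 and Adgre1 and Arg1 0.109. The tested genes most like Nos2 over these tumors were Cfb (0.977), Xdh, Dram1, Slc15a3 and Ifnar2. Those most like Arg1 were Fcgr2b (0.967), Serinc3, Ms4a4a, Ctsl and Tnfrsf9. Among those most like Mrc1 were Npl (0.880), 2700099C18Rik, Abca9 and Cd209g. Adgre1 was most like Arhgap15 (0.852), Nlrp1b, Gpr65, Camk1d and Ctsc. These values describe 9 groups of 2 tumors and were not tested.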

How the data were processed

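RNA was extracted from 18 tumors, and the study sequenced libraries made from its mRNA as paired reads. Per the labels and the study's methods, the authors aligned the reads with OSA in OmicSoft ArraySuite to GRCm38 (mm10) with the Ensembl annotation and quantified them with RSEM, and the deposited values are expected counts per gene, not normalized, of which 8.75% to 12.7% in a tumor are not whole. Here they were rounded to whole numbers. Gene symbols came from GENCODE M21 (50376 of the 50600 identifiers matched).

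Genes were filtered with filterByExpr (minimum count 10, minimum total 15), scaled by TMM and fitted with edgeR 4.0.16 (quasi-likelihood, R 4.3.3) over 16 tumors of 8 groups with 8 residual degrees of freedom. P-values were two-sided and adjusted by Benjamini-Hochberg over the 16927 genes. Changed genes had to pass 0.05 after adjustment and to differ over 2-fold. The pair of unstated amount entered only a fit of all 18 tumors. Normalized counts used DESeq2 1.42.0 size factors, and summed levels of marker lists are TMM-scaled CPM. Ratios to Adgre1 were fitted with its count (248 to 2379 reads) as library size. Only the filtered TMM fit of 16 tumors was run on simulated data, with 1 spread for all genes and groups. The other fits were not tested in this way. The study calls the tumors of a group biological replicates, and the labels do not name the mice.

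The 10 genes and all gene lists were chosen with earlier results of these data known. From each list the text could name the 4 genes of lowest p in a comparison, and others are said to be named after their values were seen. For likeness, the 5 genes of highest Pearson's r were taken. Alternatives were DESeq2, RLE scaling, no filter, only the groups compared, all 18 tumors, pooled PBS tumors, a replicate block, other denominators and leaving out each tumor. Csf1r is given without a position. No library was a duplicate of another, and each tumor was counted as 1 sample. A few genes of the lists and of the likeness ranking are not reported here.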

Additional observations from a re-analysis of the deposited data

Results flagged for a closer look

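For 5 of the genes the effect of treatment against PBS differed between 2 doses and 1 in the test of the difference itself (edgeR quasi-likelihood, Benjamini-Hochberg adjusted p). With exoCDN2 the difference in log2 fold change was 2.12 ± 0.53 for Csf1r (adjusted p = 0.0307), 3.30 ± 0.92 for Arg1 (adjusted p = 0.0494) and -5.06 ± 1.33 for Retnla (adjusted p = 0.0388). With CDN2 (20 µg) it was 1.66 ± 0.53 for Csf1r (adjusted p = 0.0432), 6.56 ± 0.98 for Arg1 (adjusted p = 0.00252), 5.61 ± 1.16 for Nos2 (adjusted p = 0.00802) and 4.02 ± 0.82 for Chil3 (adjusted p = 0.00732). Both treatments were set against the same PBS tumors. The PBS pair after 2 doses held the lowest group mean of Csf1r, Arg1 and Nos2 among the 9 groups, and this pair enters each of these differences.

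With exoCDN2 the differences for Nos2 (3.84, adjusted p = 0.0618) and Chil3 (2.54, adjusted p = 0.0711) missed the threshold.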

How the results depend on the processing

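Counts of the 10 genes called depended on the setting. The share of all genes called was not taken for the alternative settings of this section. The counts therefore describe the settings and not the 10 genes in particular. Without the filter on low counts, 2 were called for 1 dose of exoCDN2 against PBS, 2 for CDN2 (20 µg), 1 for CDN2 (100 µg) and 3 for unloaded EVs, 2 for exoCDN2 against EVs, 4 for exoCDN2 against CDN2 (20 µg) after 1 dose, 3 for 100 µg against 20 µg, 8 for 2 doses of exoCDN2 against 1, 2 for PBS, 8 for the change of the exoCDN2 effect with dose number and 5 for the pair of unstated amount. In fits of only the groups compared, 1 dose of exoCDN2 had 2, 1 dose of CDN2 (20 µg) 1, exoCDN2 against CDN2 3 after 1 dose and 0 after 2, 100 µg against 20 µg 2, 2 doses against 1 had 7 for exoCDN2 and 2 for CDN2, the change of the exoCDN2 effect 6 and the unstated pair 1. DESeq2 called 1 for exoCDN2 against CDN2 after 1 dose, 7 for 2 doses of exoCDN2 against 1, 5 for the change of its effect and 1 for the unstated pair. Pooled PBS tumors gave 1 for 1 dose of CDN2 (20 µg). The fit without the filter called 3 of the 10 for unloaded EVs, where the main fit called 0% of all genes, so its calls are not counted as support. The cause of these shifts was not tested. For 2 doses against PBS the counts over these settings were 5 to 7 for exoCDN2 and 6 to 8 for CDN2.

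Relative to Adgre1, 8 residual degrees of freedom gave 0, 3 and 2 calls (exoCDN2, CDN2, and one against the other, 2 doses). With Csf1r as denominator CDN2 had 8, 1 dose of exoCDN2 1, 1 dose of CDN2 1 and exoCDN2 against CDN2 2. With the macrophage core list as denominator these were 1 (exoCDN2, 1 dose), 1 (CDN2, 1 dose), 2 (2 doses) and 2 (1 dose) for exoCDN2 against CDN2.

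Leaving out 1 tumor gave 3 to 4 calls for 2 doses of exoCDN2, 4 to 7 for CDN2, 0 to 3 between them, 0 to 2 and 3 to 6 for 2 doses against 1 of exoCDN2 and CDN2, and 0 to 3 and 3 to 5 for the change of the effects. Relative to Adgre1 it gave 3 to 5, 4 to 4, 2 to 5 and, for 1 dose of CDN2, 0 to 1. The other comparisons stayed at 0 to 0.

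Values whose sign changed were uncalled, except that of Apoe relative to Adgre1. Trem2 with 2 doses of exoCDN2 was -0.0365 against pooled PBS. Csf1r between exoCDN2 and CDN2 was -0.0192 with DESeq2, -0.0162 with RLE scaling and -0.32 to 0.59 with 1 tumor left out. Apoe in that comparison was 0.0314 without the filter and -0.13 to 0.12 with 1 tumor left out. Adgre1 with 2 doses of CDN2 was -0.37 to 0.11 with 1 tumor left out. Apoe relative to the core list was 0.21 between exoCDN2 and CDN2.

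Same-numbered tumors did not deviate together (mean correlation 0.0164 over 36 pairs of groups, from -0.177 to 0.308), and no label says that numbers pair them. A replicate block left 2 calls for 2 doses of exoCDN2 against 1, and 5, 7 and 3 for the 2-dose comparisons with PBS and between treatments. Crossing the numbers of the CDN2 pair gave 7 against PBS and 5 against 1 dose. Expected counts of 0 to 42 limit Cd163 and Retnla after 2 doses, and 2 tumors a group limit every comparison.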
